A study of Homo sapiens with 12 samples.

Results

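The ATF and CREB transcription factors were followed in HepG2, a human liver cancer cell line, on 6 arrays of cells cultured in high glucose and 6 arrays of cells cultured in low glucose. The 10 names of the group are ATF1, ATF2, ATF3, ATF4, ATF5, ATF7, CREB1, CREB3, CREB3L3 and CREM, and every probe of the Illumina HumanHT-12 array that the platform annotation gives to one of them was taken. This gave 16 probes of 9 genes among the 48803 probes and 18852 named genes on the array, and ATF1 had no probe in the annotation used here, so its mRNA was not analysed. High glucose was 25 mM in the labels and the methods. Low glucose was 2.7 mM in the labels and 0 mM in the methods, and both groups came from cells maintained in 25 mM glucose. By the methods, cells spent 16 h in 2.7 mM glucose and then 8 h in either medium. The study called the arrays biological replicates, with no word on which cultures shared a passage or day.

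ATF and CREB proteins belong to the basic leucine zipper (bZIP) family, whose members bind DNA in pairs and recognise the cAMP response element or sequences related to it. CREB1, CREM and ATF1 are switched on by phosphorylation when hormones such as glucagon raise cAMP, and in liver CREB1 is best known for turning on glucose production during fasting. ATF2 and ATF7 are phosphorylated by stress-activated kinases, ATF4 is made when amino acid shortage or endoplasmic reticulum stress slows general translation, ATF3 is induced downstream of ATF4, ATF5 is linked to mitochondrial stress, and CREB3 and CREB3L3 are membrane proteins that are cut free to enter the nucleus. The arrays measured mRNA, so none of these protein steps was seen.

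To show which of the binding sequences of this family lie at the members' own genes, RefSeq promoter windows (GRCh38.p14, 250 bases before and 50 after each annotated start) were searched on both strands. The family sequences were the full cAMP response element TGACGTCA, its half-site TGACG and the core of the ATF4 response element TGATGNAA. Apart from these, the E-box CACGTG was searched, which the study found enriched at sites bound by the glucose-responsive factor ChREBP. Windows were found for 9 of the 10 members, 23 windows in all, and ATF2 had none. The stretches below begin with those before the first annotated starts of ATF3 and ATF4, the members with the largest probe changes. The third is part of an internal start region of CREM, which holds the full element. All are on the plus strand, written 5′ to 3′, and capitals mark the matches. The first is chr1:212565157-212565406, the second chr22:39520309-39520558 and the third chr10:35195752-35195865.
ATF3 upstream: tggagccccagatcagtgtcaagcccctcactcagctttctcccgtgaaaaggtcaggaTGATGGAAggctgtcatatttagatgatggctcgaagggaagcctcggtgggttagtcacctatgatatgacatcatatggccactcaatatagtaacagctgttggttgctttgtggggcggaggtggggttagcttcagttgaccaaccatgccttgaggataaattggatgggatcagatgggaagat
ATF4 upstream: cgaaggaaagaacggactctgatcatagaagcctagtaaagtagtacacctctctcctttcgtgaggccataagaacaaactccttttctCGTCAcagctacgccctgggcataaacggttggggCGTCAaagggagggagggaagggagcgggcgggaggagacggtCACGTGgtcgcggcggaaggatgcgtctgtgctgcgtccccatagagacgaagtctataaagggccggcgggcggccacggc
CREM internal start: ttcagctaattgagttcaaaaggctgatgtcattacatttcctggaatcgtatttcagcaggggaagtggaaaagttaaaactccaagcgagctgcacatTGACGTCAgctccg
The ATF3 stretch held TGATGGAA at 191 bases before the start, a match to the ATF4 response element core, which 3.63% of all 34796 RefSeq windows of this length hold. The ATF4 stretch held CGTCA, the half-site on the other strand, at 160 and 125 bases before the start and an E-box at 82 bases before it. The half-site was found in 24.5% of all windows and the E-box in 7.2%. An E-box also lay in a window of ATF7, 181 bases before the start. The study's list of ChREBP peaks names ATF3 and ATF7 among the nearest genes. Whether other members are in that list was not examined. The full element of the CREM stretch, found in 1.84% of all windows, contains both half-site readings and lies 50 bases before one annotated start. The windows of CREB1, CREB3L3 and ATF1 held none of these 4 motifs. A match is a string of letters and no evidence of binding.

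Of the 16 member probes, 7 passed as lower in high glucose and 2 as higher, with an adjusted p under 0.05 (limma over all 48803 probes, Benjamini-Hochberg), and 7 did not pass. Over all probes on the array, 7.43% passed as lower and 8.77% as higher. Counting only probes over an intensity of 100 on at least 6 arrays, which 14 of the 16 member probes were, 17% of 20215 probes passed as lower and 20.2% as higher. The 6 high-glucose values lay entirely outside the range of the 6 low-glucose values for 8 member probes, against 10.5% of all probes. All 8 were among the 14 brighter member probes, and 4981 of the 20215 such probes on the array were apart in this way. The median log2 change of the 16 probes was -0.15, and that of all probes was 0.00. The median size of change, without its sign, was 0.30 over the member probes and 0.075 over all probes. Among probes over 100 on at least 6 arrays it was 0.36 for the 14 member probes and 0.16 for all 20215. In RNA from whole cultures, fewer cells with a transcript and less of it per cell cannot be told apart.

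**Figure D1:**
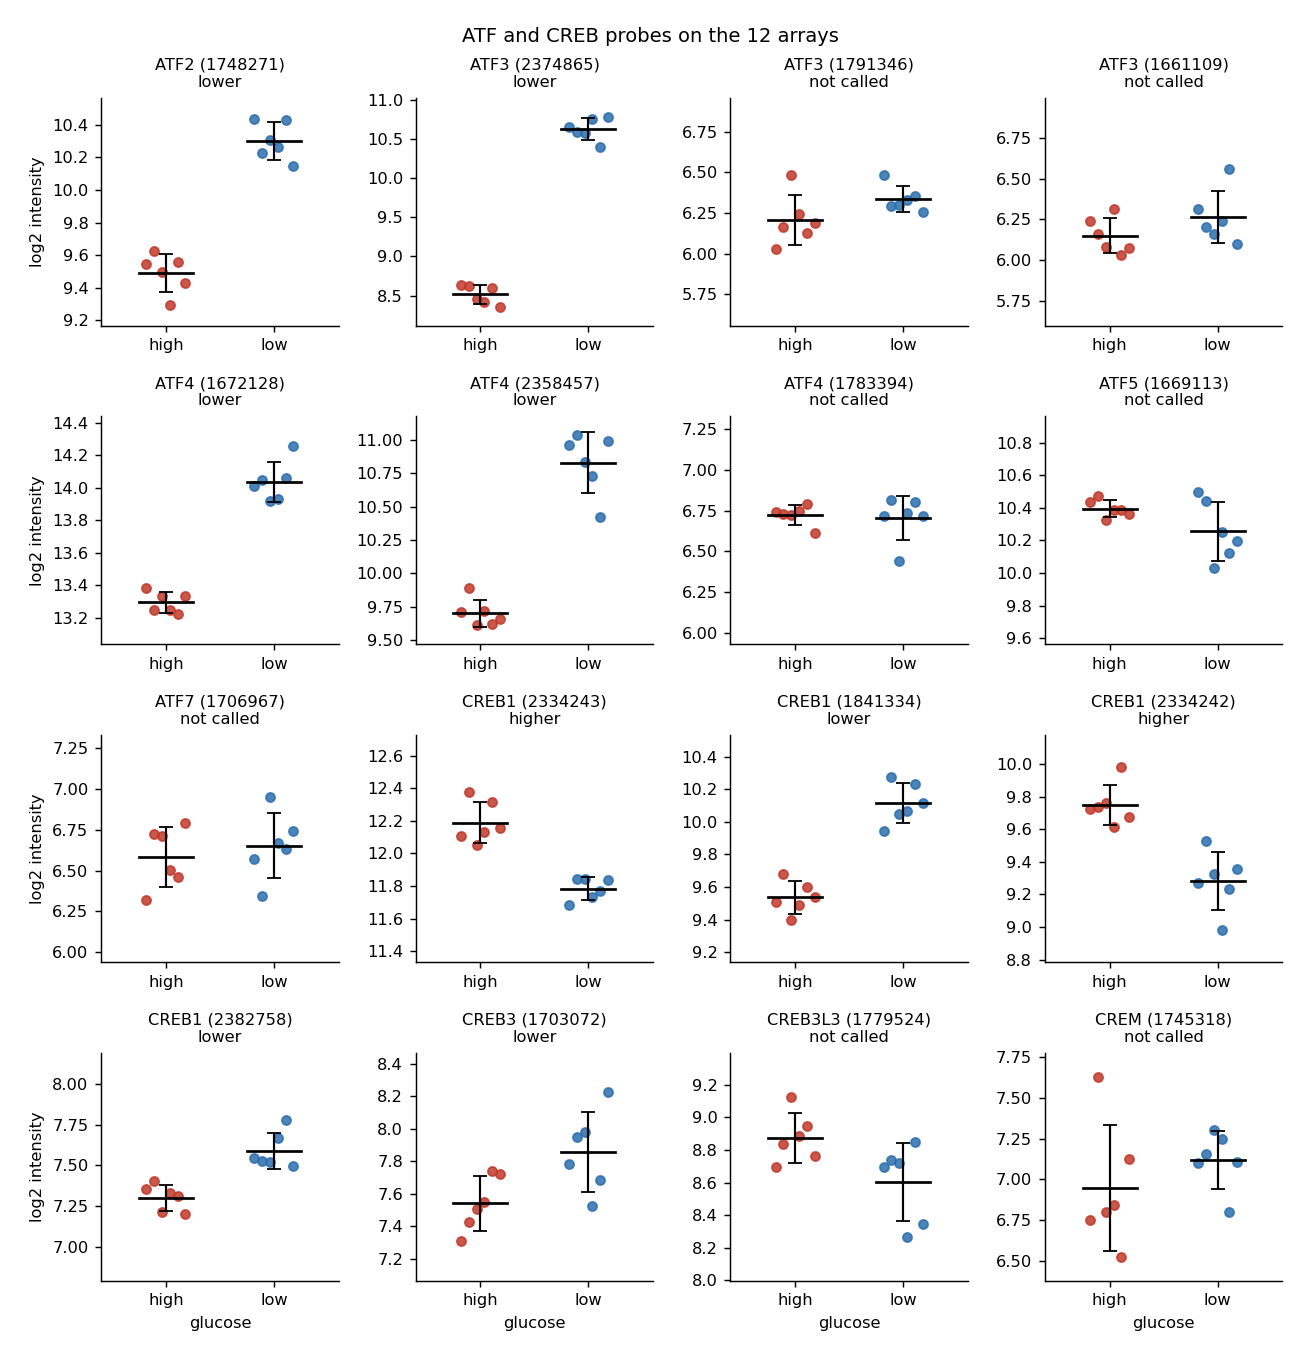
Log2 intensity (vertical axes, each panel with its own range) of the 16 ATF and CREB probes on the 6 high-glucose arrays (left, red) and the 6 low-glucose arrays (right, blue), with the mean and SD as black bars and the probe number and call above. The groups are apart in 8 panels, with the widest gap for the ATF3 probe at 367 against 1583 mean intensity.

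ATF3, an early stress-response repressor, had the largest difference of the members. Its bright probe (ILMN_2374865) read 328, 371 and 397 as the lowest, median and highest intensity in high glucose, against 1347, 1572 and 1758 in low glucose. Every high-glucose array was below every low-glucose array. The mean was 367 ± 29.8 in high glucose and 1583 ± 152 in low glucose (SD, n = 6 each), which was 4.31-fold lower in high glucose (log2 change -2.11, SE 0.08, limma adjusted p = 4.8e-17). An exact two-sided permutation test of the 12 values gave p = 0.0022, the smallest that 6 against 6 arrays can give. The other pair of ATF3 probes (ILMN_1791346 and ILMN_1661109) were below 100 on all 12 arrays, with 65.3 to 89.5 in high glucose and 68.6 to 94.3 in low glucose, and neither passed (adjusted p = 0.29 and 0.41). ILMN_1791346 is annotated to the same transcript as the bright probe, and ILMN_1661109 to another. Readings this close to the dim end of the array leave little room for a fall, so these probes say little about ATF3. Why they did not follow the bright probe was not tested.

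ATF4, the activator of amino acid supply genes under stress, was lower in high glucose on both of its brighter probes. ILMN_1672128 read 9565, 10038 and 10691 (lowest, median and highest) in high glucose, against 15466, 16736 and 19538 in low glucose. ILMN_2358457, annotated to another transcript of the gene, read 783, 823 and 948 in high glucose and 1374, 1912 and 2099 in low glucose. The groups did not overlap on either probe. The first was 1.67-fold lower (10069 ± 444 in high glucose and 16863 ± 1476 in low glucose, log2 change -0.74, SE 0.05, adjusted p = 1.9e-11). The second was 2.19-fold lower (835 ± 60.6 in high glucose and 1839 ± 272 in low glucose, log2 change -1.13, SE 0.08, adjusted p = 1.0e-10). These changes differed by 0.39 on the log2 scale (SE 0.11, adjusted p = 0.015 over 13736 probe pairs), although the arrays of both groups overlapped in the ratio of the probes. The third ATF4 probe (ILMN_1783394) is annotated to the same transcript as ILMN_1672128. It stayed near the dim end, with 106 ± 4.24 in high glucose and 105 ± 9.23 in low glucose, and did not pass (log2 change 0.02, adjusted p = 0.93). The change of ILMN_1672128 minus that of this probe was -0.76 (SE 0.09, limma adjusted p = 2.2e-06), and the cause was not tested.

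ATF2, a target of the stress kinases JNK and p38, was also lower in high glucose. Its only probe read 627, 734 and 790 (lowest, median and highest) in high glucose, against 1135, 1249 and 1388 in low glucose, with no overlap. The mean was 721 ± 56.9 in high glucose and 1266 ± 101.04 in low glucose, 1.76-fold lower (log2 change -0.81, SE 0.07, adjusted p = 1.7e-09). The probe of its close relative ATF7 was dim, with 79.9, 97.7 and 111 in high glucose and 81.1, 100.6 and 124 in low glucose. The ATF7 groups overlapped and the change of -0.07 did not pass (95% interval -0.26 to 0.13, adjusted p = 0.78).

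ATF5, a relative of ATF4, did not pass. It read 1282, 1340 and 1423 (lowest, median and highest) in high glucose and 1046, 1194 and 1444 in low glucose, so that the low-glucose arrays spanned the whole high-glucose range. The log2 change was 0.14 (95% interval -0.01 to 0.29, adjusted p = 0.26).

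**Figure D2:**
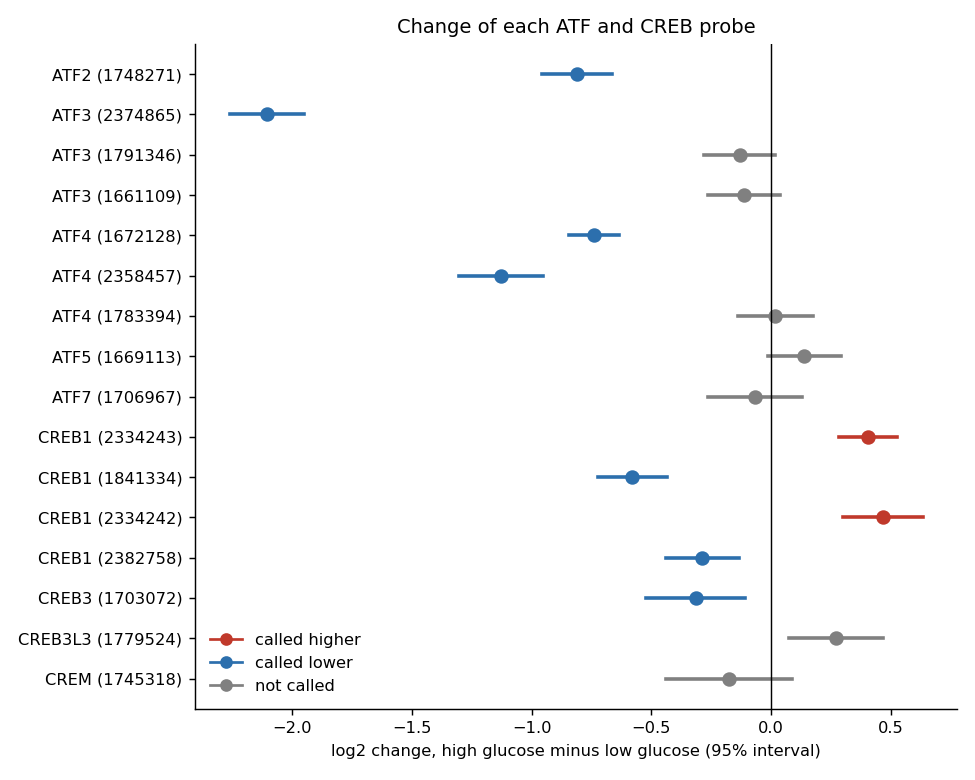
Log2 change in high glucose minus low glucose (horizontal axis) of each of the 16 probes, with its 95% interval from limma as a line and the call as colour. The 7 probes called lower reach down to -2.11 for ATF3, and the 2 called higher are both probes of CREB1, which also has 2 called lower.

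CREB1, the cAMP-responsive activator, gave opposite readings on its 4 probes. ILMN_2334243 read 4241, 4523 and 5326 (lowest, median and highest) in high glucose, against 3285, 3573 and 3679 in low glucose. ILMN_2334242, annotated to the same transcript, read 784, 850 and 1011 in high glucose and 506, 630 and 738 in low glucose. On both, every high-glucose array was above every low-glucose array. The first was 1.32-fold higher (4688 ± 427 in high glucose and 3530 ± 165 in low glucose, log2 change 0.41, SE 0.06, adjusted p = 7.7e-06). The second was 1.38-fold higher (864 ± 78.3 in high glucose and 627 ± 75.6 in low glucose, log2 change 0.47, SE 0.08, adjusted p = 8.8e-05). Both probes of this transcript rose in high glucose, and the difference between their changes was -0.06 (SE 0.10, adjusted p = 0.79).

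The other CREB1 probes were lower in high glucose. ILMN_1841334, annotated to a cDNA that is not a RefSeq transcript, read 673, 736 and 822 (lowest, median and highest) in high glucose and 986, 1091 and 1242 in low glucose. ILMN_2382758, annotated to a second RefSeq transcript, read 147, 160 and 169 in high glucose and 180, 186 and 220 in low glucose. Here every high-glucose array was below every low-glucose array. The first was 1.49-fold lower (744 ± 51.4 in high glucose and 1112 ± 95.6 in low glucose, log2 change -0.58, SE 0.07, adjusted p = 4.9e-07). The second was 1.22-fold lower (158 ± 8.67 in high glucose and 193 ± 15.5 in low glucose, log2 change -0.29, SE 0.07, adjusted p = 0.006). Each probe that rose differed in its change from each that fell, by 0.69 to 1.05 on the log2 scale (adjusted p between 1.2e-08 and 2.9e-05). The position of the probes within the gene is not used here, so whether transcript forms of CREB1 moved apart was not tested.

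**Figure D3:**
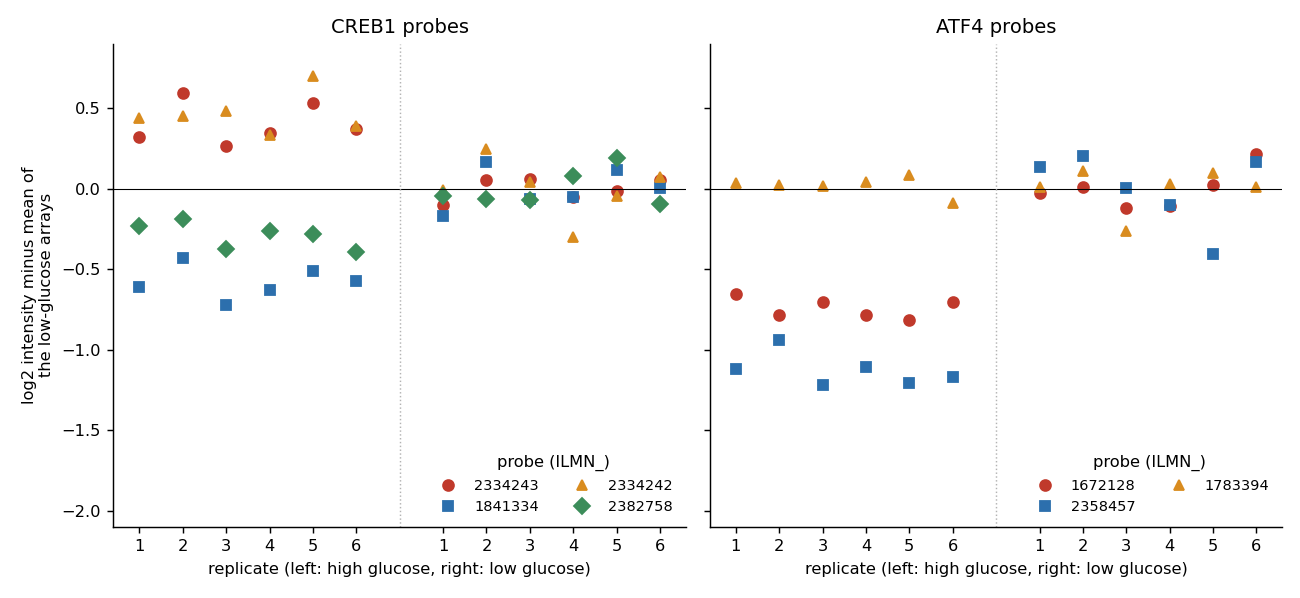
Log2 intensity of each CREB1 probe (left) and each ATF4 probe (right) minus that probe's own mean over the low-glucose arrays (vertical axis), on the 6 high-glucose arrays and then the 6 low-glucose arrays. In high glucose a pair of CREB1 probes lies above 0 and the other pair below it on every array, while ATF4 has 2 probes well below 0 and 1 near it.

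Disagreement between probes of one gene was tested over all 13736 probe pairs of the 6132 genes with several probes. Of the 12 member pairs, 10 differed in their change (adjusted p under 0.05), against 13.8% of all such pairs. Of these 10, 2 set the bright ATF3 probe against one below 100 on every array, which did not follow its fall. With both probes over 100 on at least 6 arrays, 8 of 9 member pairs differed, against 18.4% of such pairs, and 2 of the 8 involve the ATF4 probe that read close to 100. The 12 pairs come from 3 members, and these 9 are all from CREB1 and ATF4. Pairs of one gene share probes, so they are not independent and do not describe the whole group. The member pairs that did not pass were the dim pair of ATF3 and the CREB1 pair of one transcript. Among 971 genes with at least 2 probes that passed, 50 had probes called in opposite directions, and CREB1 was one of them.

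CREM, the cAMP-inducible relative of CREB1, had 1 probe and did not pass. It read 92.1, 113 and 198 (lowest, median and highest) in high glucose and 111, 140 and 158 in low glucose. The highest value of both groups was on a single high-glucose array, replicate 2. The log2 change was -0.17 (95% interval -0.44 to 0.09, adjusted p = 0.48), and without that array it was -0.31 (adjusted p = 0.036).

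CREB3, a membrane-bound factor of the secretory pathway, passed narrowly as lower in high glucose. It read 159, 185 and 214 (lowest, median and highest) in high glucose and 184, 234 and 299 in low glucose. The groups overlapped, with means of 188 ± 21.8 in high glucose and 235 ± 40.5 in low glucose (log2 change -0.31, SE 0.10, adjusted p = 0.03). Leaving out any 1 of 7 arrays (high-glucose replicates 1, 2, 3 and 4 and low-glucose replicates 2, 3 and 6) ended this call, with adjusted p between 0.051 and 0.098.

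CREB3L3, its liver and gut relative and a regulator of triglyceride metabolism, was on the other side of the threshold. It read 414, 465 and 558 (lowest, median and highest) in high glucose and 308, 418 and 462 in low glucose, with overlap. The log2 change of 0.27 (SE 0.10, 95% interval 0.08 to 0.47) had an adjusted p of 0.053 over all probes and passed with 0.029 when 1 probe was taken for each of the 18852 genes. The difference between the CREB3L3 and CREB3 changes was not tested.

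Taken by the brightest probe of each gene, 4 of the 9 members were lower (ATF2, ATF3, ATF4 and CREB3) and 2 higher (CREB1 and CREB3L3), against 13.3% of all genes called lower and 16.6% called higher. With the mean log2 value of a gene's probes in place of the brightest, 5 passed and CREB1 no longer did (log2 change 0.00, adjusted p = 0.99), since its probes cancelled. ATF3 was then at -0.78 and ATF4 at -0.62.

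The genes whose log2 profile over the 12 arrays lay nearest to that of ATF3, after each gene's own mean was subtracted, were GCLM, HAMP, MXD1, NUPR1 and MTHFD2. Their root mean square distances were 0.09, 0.17, 0.18, 0.19 and 0.20. GCLM, a subunit of the enzyme that begins glutathione synthesis, averaged 1716 ± 64.7 in high glucose and 7147 ± 551 in low glucose (log2 change -2.06). Likeness here rests mainly on the size of the difference between the groups.

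The relatives and pathways of the members were then counted by the brightest probe of each gene, and a gene can stand in more than 1 list. Over all genes counted this way, 13.3% were lower and 16.6% higher, the shares to set beside every list below. Among 13 ATF and CREB relatives outside the members, 6 were lower, none was higher and 7 did not pass (median log2 change -0.12, against 0.01 over all genes). CREBRF, a regulator that binds CREB3, averaged 155 ± 22.9 in high glucose and 305 ± 42.2 in low glucose (-0.98). BATF (-0.65), the endoplasmic reticulum stress sensor ATF6 (-0.58) and the AP-1 repressor JDP2 (-0.53) were lower as well. Of 20 other bZIP genes measured, many of which pair with ATF proteins, 12 were lower, 4 higher and 4 did not pass, with a median of -1.03. The stress factor DDIT3 averaged 286 ± 13.6 in high glucose and 4389 ± 301 in low glucose (-3.94), and the AP-1 genes FOS (-3.40), FOSB (-2.81) and JUN (-1.90) were also lower.

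Of 7 genes for the kinases and phosphatase subunits that act on the translation factor eIF2alpha, upstream of ATF4, and eIF2alpha itself, 2 were lower, 1 higher and 4 did not pass. PPP1R15A, the stress-inducible phosphatase subunit, averaged 1326 ± 99.9 in high glucose and 10634 ± 625 in low glucose (-3.00). The kinase gene EIF2AK3 was lower (-0.46) and the amino acid sensing kinase gene EIF2AK4 was higher (0.38). Of 35 ATF4 target genes measured, 29 were lower, none was higher and 6 did not pass, with a median of -0.78. DDIT4, an inhibitor of mTORC1 signalling, averaged 4173 ± 456 in high glucose and 14726 ± 2143 in low glucose (-1.81). NUPR1, a stress-induced chromatin protein, was at -1.80, and MTHFD2, a mitochondrial folate enzyme, averaged 1959 ± 137 in high glucose and 6766 ± 183 in low glucose (-1.79). The largest change in this list was that of DDIT3, given above.

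Of 22 coactivator and cAMP pathway genes measured, 6 were lower, 2 higher and 14 did not pass, with a median of -0.05. SIK1, a kinase that keeps CREB coactivators out of the nucleus, averaged 306 ± 34.2 in high glucose and 538 ± 35.5 in low glucose (-0.82). The cAMP phosphodiesterase PDE4D (-0.73), the coactivator CREBBP (-0.56) and SIK3 (-0.40) were lower too. Of 17 cAMP and CREB target genes measured, 8 were lower, 2 higher and 7 did not pass. DUSP1, a MAP kinase phosphatase, averaged 1934 ± 131 in high glucose and 11095 ± 1531 in low glucose (-2.51), and FOS and the immediate early gene EGR1 (-1.68) were lower. G6PC1, the catalytic subunit of glucose-6-phosphatase, moved the other way, with 314 ± 43.4 in high glucose and 89.8 ± 7.10 in low glucose (1.80). By qRT-PCR the study reported a decrease of this gene in high glucose, opposite to the array, and the reason was not tested.

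Of 9 stress kinase genes upstream of ATF2 and ATF7 measured, 4 were higher, 2 lower and 3 did not pass. The changes were small, with MAPK8 at 0.31, MAPK12 at 0.27, MAP2K6 at 0.23 and MAP2K4 at -0.22. Of 6 genes for the processing and partners of CREB3 and CREB3L3, 3 were lower and 3 did not pass. SYVN1, a ubiquitin ligase of the endoplasmic reticulum, averaged 1675 ± 46.4 in high glucose and 2839 ± 374 in low glucose (-0.75), HCFC2 was at -0.47 and the protease gene MBTPS2 at -0.32.

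Of 9 liver target genes of CREB3L3 measured, 5 were higher, 1 lower and 3 did not pass, with a median of 0.31. APOA5, an activator of triglyceride clearance, averaged 2714 ± 207 in high glucose and 1166 ± 145 in low glucose (1.22). CIDEC, a lipid droplet protein, was at 1.08 and the apolipoprotein gene APOA4 at 0.53, while HAMP, the iron hormone hepcidin, was lower with 294 ± 15.8 in high glucose and 1450 ± 93.7 in low glucose (-2.30). Of 7 mitochondrial stress genes linked to ATF5, 4 were lower, 2 higher and 1 did not pass. The chaperone genes DNAJA3 (-0.35) and HSPA9 (-0.30) and the protease genes YME1L1 (-0.27) and LONP1 (-0.23) were the 4 that fell.

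**Figure D4:**
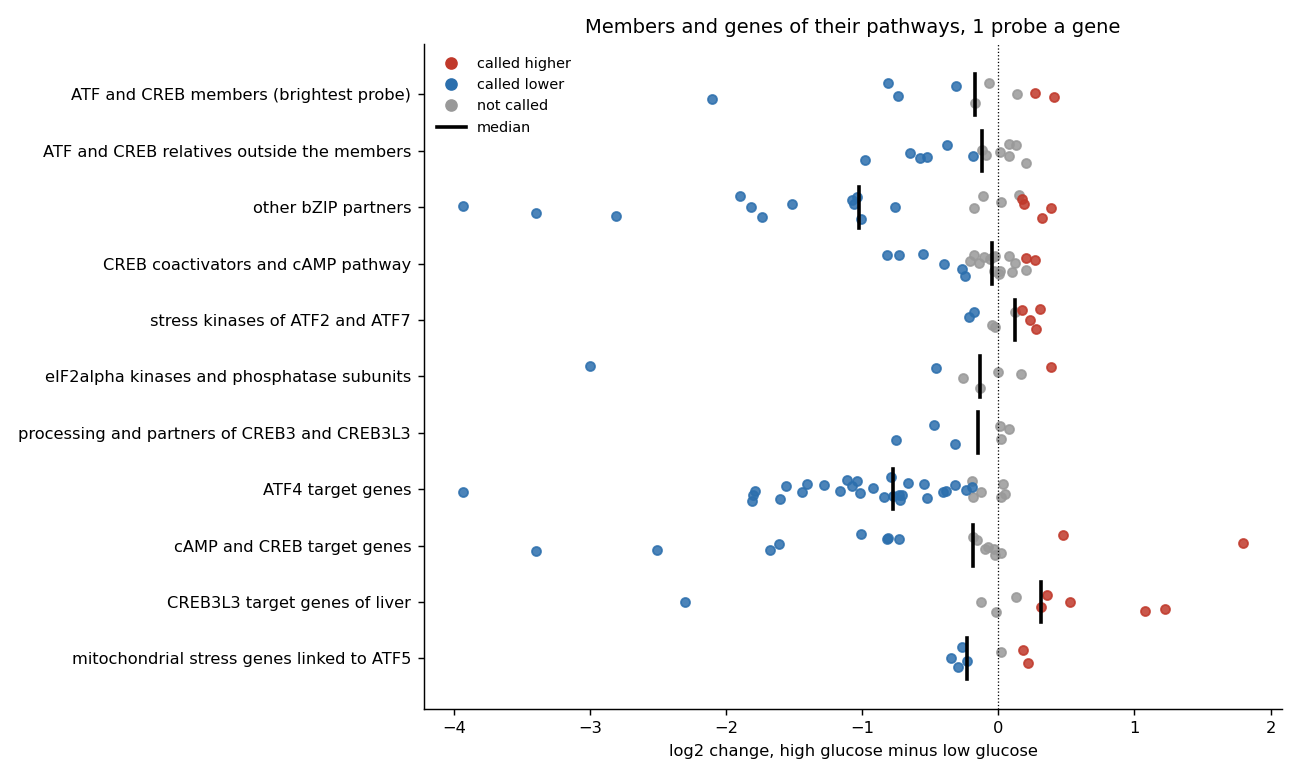
Log2 change in high glucose minus low glucose (horizontal axis) of the 9 members and of the genes of 10 related lists, 1 point a gene by its brightest probe, coloured by its call, with the list's median as a black bar. ATF4 target genes and other bZIP genes lie furthest to the left, with medians of -0.78 and -1.03, and CREB3L3 target genes have a median of 0.31.

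All 12 hepatocyte markers measured were over 100 on every array. Of these FGB (log2 change 0.53) and FGA (0.45), subunits of fibrinogen, passed as higher and APOB (-0.22) as lower, and the list summed to 175500 to 194300 in high glucose and 168300 to 183000 in low glucose. The 5 fibroblast markers summed to 400.2 to 462 in high glucose and 406 to 475 in low glucose, and none passed. Of 5 leukocyte markers, CD14, CD79A and LYZ were over 100 on every array and PTPRC and CD3E averaged below 100 in both groups. CD14 (0.68) and LYZ (0.22) passed as higher, and the list summed to 12540 to 14700 in high glucose and 9965 to 12780 in low glucose, most of it LYZ. Of 5 endothelial markers, PECAM1 and KDR were over 100 on every array, with PECAM1 at 208 ± 19.6 in high glucose and 209 ± 27.2 in low glucose. VWF, below 100 on every array, passed as higher (0.20), and the list summed to 533 to 571 in high glucose and 510 to 688 in low glucose. The part of these genes in the results above was not tested. Arrays of one group correlated at 0.992 to 0.996 over bright probes and arrays of different groups at 0.977 to 0.983, and no array stood apart.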

How the data were processed

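The values deposited by the authors were linear probe intensities of 12 arrays, normalised so that the sorted intensities of any 2 arrays differed by at most 0.825 outside the top 100 probes. The methods of the study name limma and CyberT without settings, while GenomeStudio 2010.1 is named in the submitters' processing notes. Whether background was corrected is not stated. A table of signals before normalisation was not used, because its 24 per-sample columns match no sample label. Intensities were taken as log2 without further scaling and fitted with limma 3.58.1 in R 4.3.3 (trended variance, high glucose minus low glucose), with Benjamini-Hochberg adjustment over all 48803 probes. Gene counts used the probe with the highest mean of each gene in a fit over 18852 genes, and probe pairs were tested on their log2 ratio. Probe names came from the platform annotation of 2016, in which 28098 probes carried a single gene symbol, 13 more than one and 20692 no symbol. Depth has no counterpart on arrays, and the 6 arrays a group limit the precision. Intensities ran between 47.2 and 36779, so changes of dim probes can be compressed by background. Slides were not known, so batches were not tested. Alternatives were another pseudocount (16), normexp, CyberT-type variances, array weights, probe filters, stricter thresholds, a replicate block and each array left out. All member probes are reported, lists by counts and up to 4 called genes of largest change, and nearest profiles for the most changed member. The members and lists were chosen with earlier results of these data known.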

Additional observations from a re-analysis of the deposited data

Results flagged for a closer look

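One member probe had an array far from the rest of its group. The dim ATF4 probe ILMN_1783394 read 87 on the low-glucose array of replicate 3, against 105 to 113 on the other 5 low-glucose arrays, a gap of 0.726 of the group's range, which is above Dixon's critical value for 6 arrays. Groups tested in this way numbered 32, and chance alone marks about 1 in 20.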

How the results depend on the processing

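The 2 probes called higher and 7 called lower became 2 to 3 and 6 to 7 when each array was left out in turn, with 7385 to 7781 calls over all probes against 7904 with every array. Requiring a change of at least 1.5-fold left 0 probes higher and 4 lower, and 1538 over all probes. All 4 CREB1 probes and the CREB3 probe lost their calls under this rule. In the other alternatives 2 or 3 probes were higher and 6 or 7 lower. CREB3 kept its call in 13 of 20 alternatives (adjusted p between 0.0059 and 0.098), CREB3L3 gained one in 8 of 20 (0.019 to 0.16) and CREM in 1 of 20, and the cause was not tested. The other member probes kept their direction and side of the threshold in the 20 alternatives (19 for the dim ATF3 probes). The exception was the sign of the uncalled ATF4 probe ILMN_1783394. These 20 alternatives do not include the stricter thresholds. A fit on probes over 100 on at least 6 arrays gave 8 differing probe pairs, and leaving out arrays gave 9 to 10 and 4 to 7 members called by gene, the second chosen after seeing the data. Deviations of same-numbered arrays correlated between -0.0563 and 0.0158, and 1 of 12 arrays correlated best with its own number. That gave no sign of pairing by replicate number, but cannot show whether same-numbered cultures shared a passage or day. With the replicate block, 3 probes were higher and 7 lower, and 7760 probes were called in all. Under it 10 probe pairs still differed and 6 members were called by gene, the last also added after seeing the data. Changes of probes near 100 are limited by background signal.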
